A study of Fraxinus excelsior with 182 samples.

Results

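Fe_g22999 and Fe_g19663 are 2 of the 42665 gene models measured in the leaves of European ash (Fraxinus excelsior). The study annotated Fe_g22999 as SVP-like and Fe_g19663 as SOC1-like, and both were taken by identifier, as a pair whose opposition across these trees was already known. Both belong to the MADS-box family of transcription factors. In Arabidopsis, SVP (Short Vegetative Phase) represses flowering and SOC1 (Suppressor of Overexpression of Constans 1) promotes it, and the SVP protein represses transcription of the SOC1 gene directly. In several woody perennials, SVP relatives are known as dormancy-associated MADS-box genes, which are linked to growth arrest and bud dormancy. Neither role has been assigned here to the ash genes themselves, and the names rest on the study's annotation.

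The 182 samples were leaves of 182 Danish ash accessions of no stated genotype, age or treatment, with 1 library per tree, and all formed 1 group. Each tree carries a number in its label, from Ash1 to Ash218, and the labels do not say what the order of the numbers follows. The question was how the balance between the SVP-like and the SOC1-like gene varied among trees and which other genes followed it. The study reported both genes for their relation to ash dieback damage, and damage scores were not used here. Values are TPM, an abundance set per transcript length and scaled to the same sum in every tree, and the depth behind them is unknown. A tree had between 31244 and 34889 genes above 0 TPM, and its 10 most abundant genes held between 4.25% and 19.99% of its TPM. No gene that defines leaf cells was annotated in the sources used, but the chlorophyll synthesis genes Fe_g5474 (divinyl reductase) and Fe_g32180 (coproporphyrinogen oxidase) and the chaperonin gene Fe_g36128 were detected in every tree, at no less than 7.66, 515 and 93.7 TPM.

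The 2 genes covered similar ranges of level, and each tended to be low in trees where the other was high. Fe_g22999 was at 16.8 ± 9.31 TPM (SD, n = 182), with a lowest value of 0.582, a median of 18.004 and a highest value of 36.7 TPM. Fe_g19663 was at 12.7 ± 9.55 TPM (SD, n = 182), with a lowest value of 0, a median of 12.2 and a highest value of 46.4 TPM. Fe_g22999 was above 20 TPM in 76 trees and Fe_g19663 in 47 trees, but no tree had both above 20 TPM. Ash60 came close, with 19.7 TPM of Fe_g22999 and 19.8 TPM of Fe_g19663. No tree had both below 5 TPM either, although 25 trees were below that level for Fe_g22999 and 54 for Fe_g19663. In 50 trees both genes were above 10 TPM. In leaf tissue, fewer cells expressing a gene and less RNA of it per cell cannot be told apart.

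**Figure D1:**
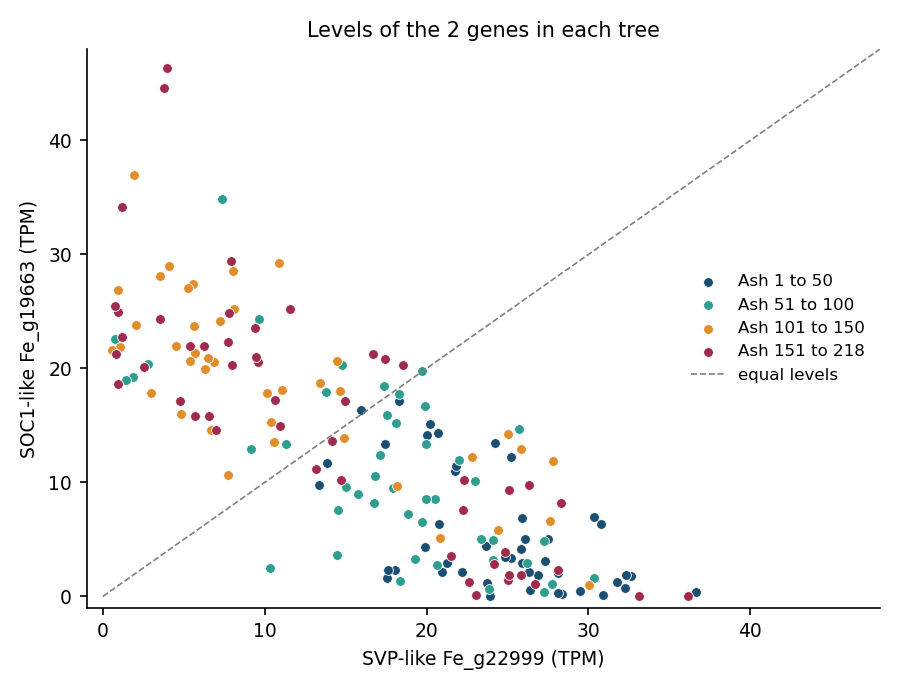
Level of SOC1-like Fe_g19663 (TPM, vertical axis) against SVP-like Fe_g22999 (TPM, horizontal axis), with 1 point for each of the 182 trees, coloured by range of Ash numbers. The dashed line marks equal levels. The area where both genes are above 20 TPM is empty, and so is the corner where both are below 5 TPM.

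The sum of the 2 genes varied far less than either gene. Summed TPM was 29.4 ± 5.84 (SD, n = 182), between 12.8 and 50.3 TPM, with a coefficient of variation of 19.8%. The coefficient of variation was 55.5% for Fe_g22999 and 75.3% for Fe_g19663. Had the levels of the 2 genes been uncorrelated, the sum would have had an SD of 13.3 TPM and a coefficient of variation of 45.3%. The share of Fe_g22999 in the sum ranged from 2.61% to 100% with a median of 60.4%. The pair was chosen for its opposition, so these values are a description and were not tested.

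The balance was expressed for each tree as the log2 ratio of (Fe_g22999 TPM + 1) to (Fe_g19663 TPM + 1), which is positive where the SVP-like gene was higher. Adding 1 TPM pulls the ratio of low values toward 0. The ratio had a median of 0.57, quartiles at -1.25 and 2.35 and an SD of 2.28 over the 182 trees. Fe_g22999 was higher in all but 74 trees, in which Fe_g19663 was higher. In 55 trees Fe_g22999 exceeded Fe_g19663 by more than 4-fold on this scale, and in 26 trees the excess of Fe_g19663 was more than 4-fold. The ratio lay within 2-fold of equality in 55 trees.

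The trees formed a continuum from one extreme to the other. A kernel density of the ratio had 1 peak, at 0.45, and its skewness was -0.06. The levels of the single genes each showed a minor second peak in log2(TPM + 1), but the density between the peaks fell only to 0.88 of the lower peak for Fe_g22999 and to 0.97 for Fe_g19663, so the trees were not divided into classes by either. Of the variance of the ratio, 23.9% came from Fe_g22999, 36.05% from Fe_g19663 and 40.03% from their covariance. The ratio was nearly unrelated to summed TPM (Pearson's r = -0.02, n = 182), which shares both genes with it.

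**Figure D2:**
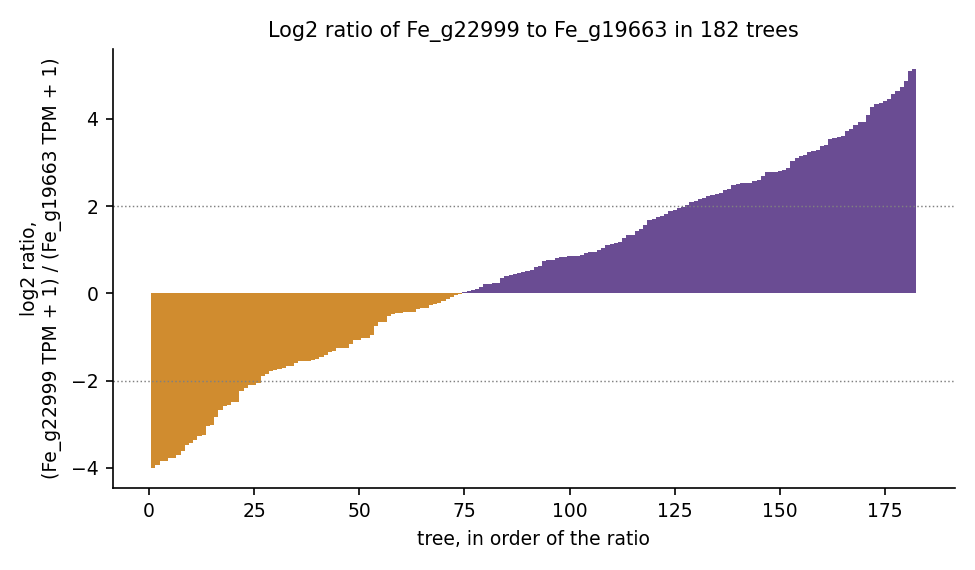
Log2 ratio of Fe_g22999 to Fe_g19663 (vertical axis, 1 TPM added to both) in the 182 trees, in order of the ratio (horizontal axis). Bars above 0 are trees with higher Fe_g22999 and bars below 0 the 74 trees with higher Fe_g19663. Dotted lines mark 4-fold, and the bars pass through equality without a gap.

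At the SVP-like end, Fe_g19663 was close to absent. Ash210 had the highest ratio, at 5.14, with 36.1 TPM of Fe_g22999 and 0.0554 TPM of Fe_g19663. Ash213 followed at 5.09, with 33.1 TPM of Fe_g22999, and Fe_g19663 was listed at 0. Ash11 had a ratio of 4.87, with 30.9 TPM of Fe_g22999 and 0.0898 TPM of Fe_g19663. These trees combined some of the highest levels of the SVP-like gene with almost none of the SOC1-like gene. Ash17 had 36.7 TPM of Fe_g22999, the highest of all trees, and 0.431 TPM of Fe_g19663, at a ratio of 4.72. Ash18 had 23.9 TPM of Fe_g22999 at a ratio of 4.64, and Fe_g19663 was again listed at 0. No other tree was at 0 for Fe_g19663, and none was at 0 for Fe_g22999.

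At the SOC1-like end, Fe_g22999 was low but always detected. Ash152 had the lowest ratio, at -4.00, with 1.20 TPM of Fe_g22999 and 34.2 TPM of Fe_g19663. Ash192 had 0.737 TPM of Fe_g22999 and 25.5 TPM of Fe_g19663, at a ratio of -3.93. Ash144 had 0.582 TPM of Fe_g22999, the lowest of all trees, and 21.7 TPM of Fe_g19663, at a ratio of -3.84. The SVP-like gene was thus near 1 TPM in each of these trees. Ash150 had 0.960 TPM of Fe_g22999 and 26.9 TPM of Fe_g19663, at a ratio of -3.83. Ash97 had 0.733 TPM of Fe_g22999 and 22.6 TPM of Fe_g19663, at a ratio of -3.77. Below 1 TPM lay 7 trees for Fe_g22999 and 13 trees for Fe_g19663.

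The ratio fell with the Ash number. Pearson's r was -0.369 (95% interval -0.488 to -0.236) and Spearman's rho was -0.407 (n = 182, two-sided permutation p = 1e-05 for both, the smallest that 100000 permutations can give, adjusted p = 1.33e-05 over 8 tests). Without the 2 trees farthest from the median Ash number, r was -0.393. The 2 genes moved in opposite directions along the numbers, with r = -0.346 and rho = -0.375 for Fe_g22999, against r = 0.333 and rho = 0.400 for Fe_g19663 (permutation p = 1e-05, adjusted p = 1.33e-05 for each). Without the same 2 trees r was -0.364 for Fe_g22999 and 0.359 for Fe_g19663. Their summed TPM showed no detectable relation to the number, with r = 0.0232 (permutation p = 0.756, adjusted p = 0.864) and a 95% interval of -0.123 to 0.168. Since the 2 genes mirror each other, their relations to the number are not separate findings.

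A relation to the number was common among leaf genes. In a limma fit on the standardized Ash number, 6626 of 31003 genes passed an adjusted p of 0.05, or 21.4%, with 1869 rising (6.03%) and 4757 falling (15.3%). Fe_g22999 had a slope of -0.39 ± 0.08 (SE) in log2(TPM + 1) per SD of Ash number (limma adjusted p = 4.9e-05), and it was number 930 of all genes by p. Fe_g19663 had a slope of 0.46 ± 0.10 (SE, limma adjusted p = 0.000105), at number 1150. Both were called, against this background of 21.4%.

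The change along the numbers was not a straight line. Among Ash1 to Ash50, 45 of 46 trees had higher Fe_g22999, and the exception, at -0.04, was close to equality. The median ratio there was 2.52, with medians of 25.01 TPM for Fe_g22999 and 3.24 TPM for Fe_g19663. Among Ash51 to Ash100 the median ratio was 0.83, with Fe_g22999 higher in 33 of 45 trees. Among Ash101 to Ash150 it was -1.45, and Fe_g22999 was higher in only 10 of 41 trees. Median levels in that range were 7.75 TPM for Fe_g22999 and 19.9 TPM for Fe_g19663, so the order of the 2 genes was turned round relative to the lowest numbers.

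**Figure D3:**
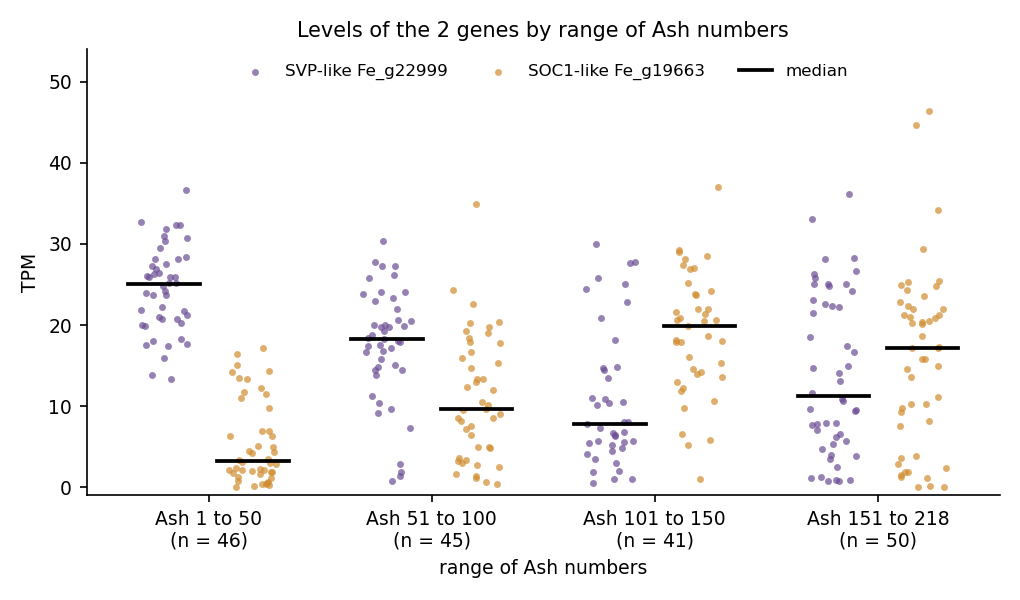
Levels of SVP-like Fe_g22999 and SOC1-like Fe_g19663 (TPM, vertical axis) in 4 ranges of Ash numbers (horizontal axis), with 1 point per tree and gene and a black bar at the median. Median Fe_g22999 is 25.01 TPM in Ash1 to Ash50 and 7.75 TPM in Ash101 to Ash150, and the trees of the last range spread over nearly the whole scale.

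The highest numbers held both extremes. Among Ash151 to Ash218 the median ratio was -0.54, and it ranged from -4.00 in Ash152 to 5.14 in Ash210. Fe_g22999 was more than 4-fold higher in 12 of these 50 trees and Fe_g19663 in 10. The high ratios lay toward the end: in steps of 25 numbers the median was -1.77 among Ash151 to Ash175 (n = 17), -1.04 among Ash176 to Ash200 (n = 18) and 1.44 among Ash201 to Ash218 (n = 15). These steps were chosen after the values were seen and were not tested. The 4 ranges held 29.6% of the variance of the ratio between them (permutation p = 1e-05, the smallest possible, adjusted p = 1e-05 over 3 tests). They held 24.2% of the variance of Fe_g22999, a share that 0.613% of the 31003 genes reached, and 25.9% of that of Fe_g19663, which 0.397% reached, whereas the median gene had 3.25%.

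Trees with neighbouring numbers resembled each other in the balance. The ratios of trees consecutive in Ash number differed by 1.78 on average, against 2.63 over permutations of the trees (one-sided permutation p = 1e-05, the smallest possible, adjusted p = 1e-05 over 3 tests). The correlation between consecutive trees was 0.464 for Fe_g22999, and 0.0194% of the 31003 genes reached a value as high. For Fe_g19663 it was 0.419, which 0.0419% of genes reached, whereas the median gene had 0.0256. Few genes were thus as alike between neighbouring numbers as these 2.

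**Figure D4:**
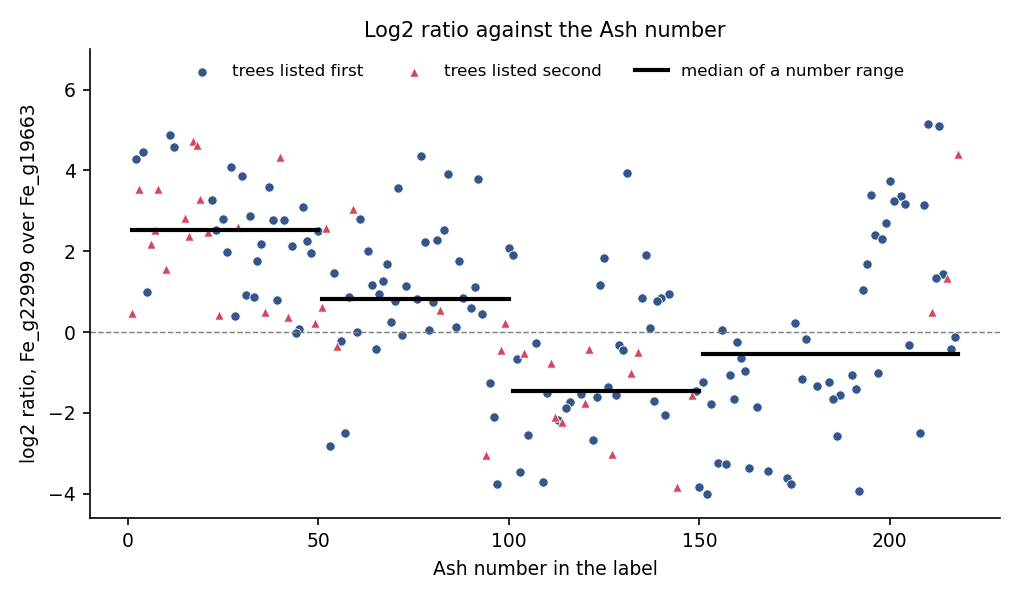
Log2 ratio of Fe_g22999 to Fe_g19663 (vertical axis) against the Ash number (horizontal axis), with 1 point per tree. Triangles are the 40 trees listed second, circles are the trees listed first, and black lines are the medians of 4 ranges of numbers, at 2.52, 0.83, -1.45 and -0.54.

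The numbering of the samples starts again for the 40 trees listed last, and the labels do not say whether these are a batch. The relation to the Ash number was present in both, with r = -0.485 and rho = -0.597 in the trees listed second (n = 40, permutation p = 0.00136 and 6e-05), and r = -0.331 and rho = -0.342 in the trees listed first (permutation p = 3e-05 and 4e-05). Without 2 trees r was -0.733 in the trees listed second and -0.316 in those listed first. Consecutive trees differed by 1.73 within the second listing (permutation p = 0.00017) and by 1.76 within the first (permutation p = 1e-05). The 4 ranges held 57.4% of the variance of the ratio in the second listing and 24.8% in the first (permutation p = 1e-05 for both). The second listing had only 8 trees in Ash51 to Ash100 and 3 in Ash151 to Ash218, against 37 and 47 in the first. The mean ratio was 0.86 ± 2.26 in the trees listed second and 0.48 ± 2.29 in the trees listed first (SD, n = 40 of 182 trees in the second listing), a difference of 0.38 that did not pass (permutation p = 0.354, adjusted p = 0.532).

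The mirror relation of the 2 genes was also present within each range of numbers. On TPM, r between Fe_g22999 and Fe_g19663 was -0.562 in Ash1 to Ash50, -0.650 in Ash51 to Ash100, -0.761 in Ash101 to Ash150 and -0.809 in Ash151 to Ash218 (n = 46, 45, 41 and 50). It was -0.801 in the trees listed second and -0.823 in the trees listed first. These are given as a description, since the pair was chosen for this relation.

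Measures of the whole library moved with the ratio only weakly. Principal component 1 of all other genes, which held 30.5% of the variance of log2(TPM + 1), had r = -0.255 and rho = -0.202 with the ratio (n = 182, permutation adjusted p = 0.00228 and 0.0133 over 8 tests). The share of TPM in the 10 most abundant genes had r = -0.248 and rho = -0.220 (permutation adjusted p = 0.00228 and 0.00752). After leaving out the 2 trees most distant from the median of each measure, r was -0.273 for component 1 and -0.267 for the share. For component 2 only rho passed, at 0.170 (permutation adjusted p = 0.036), and r was 0.123 (permutation adjusted p = 0.134). The number of genes above 0 TPM showed no detectable relation (r = 0.0225, permutation adjusted p = 0.765). Principal components 1 to 5 together took up 9.47% of the variance of the ratio.

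Of 31001 other genes, 33.3% passed the test against the ratio, and few of them had an absolute r of 0.5 or more. In a limma fit on the standardized ratio, 5916 genes rose with it, or 19.1%, and 4395 fell, or 14.2% (adjusted p of 0.05 or less). Over all genes tested, called or not, the median absolute r was 0.128. An absolute r of 0.5 or more was reached by 20 genes, 10 in each direction. Of these, 7 were SOC1-like or JOINTLESS-like MADS-box genes, which the study selected on the same trees, so nothing is read from that count. Without the 18 trees highest on component 1, 1332 genes rose and 2210 fell, so the larger number was on the other side. With 5 components as covariates, 1750 rose and 936 fell. Counts over all genes thus changed under these 2 settings, whereas on ranks 4595 genes rose and 4136 fell. The reason for the change was not tested.

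A gene can be correlated with the ratio through a single member of the pair. To separate these cases, the levels of both genes were entered together, and a gene was taken to follow the ratio where its slope was positive with one gene and negative with the other, both at an adjusted p of 0.05 or less. Only 14 of 31001 genes, or 0.0452%, met this, 12 on the SVP side, or 0.0387% (higher with more Fe_g22999 and with less Fe_g19663), and 2 on the SOC1 side, or 0.00645%. All 14 also had an absolute r with the ratio above that with each gene alone, as did 10.3% of all genes tested. The gain was small, between 0.025 and 0.049 in r. Opposite slopes in the joint fit make a larger r with the ratio likely, so this is no separate support. With 5 components as covariates, or without the 18 trees highest on component 1, 2 of the 14 remained, Fe_g27900 on the SVP side and Fe_g18379 on the SOC1 side, and on ranks none of the 12 on the SVP side remained. In contrast, 7.17% of genes moved the same way with both. Of these, 2125 genes, or 6.85%, rose with both members of the pair and 99, or 0.319%, fell with both. These counts did not hold: 11 rose and 12 fell with median-of-ratios scaling, 2 rose and 1 fell with 5 components, and 7963 rose and 1290 fell on ranks.

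The AP2-domain gene Fe_g27900, of a family of plant transcription factors, followed the ratio most closely on the SVP side. It had a lowest value of 9.96, a median of 28.6 and a highest value of 114.1 TPM, and it was detected in all trees. Its r was 0.669 with the ratio, 0.605 with Fe_g22999 and -0.622 with Fe_g19663, and its rho with the ratio was 0.659. In the joint fit its slope was 0.21 ± 0.05 (SE) per SD of Fe_g22999, with a limma adjusted p of 0.000208, and -0.24 ± 0.05 (SE) per SD of Fe_g19663, with one of 0.000294. It was called under 8 of 9 alternatives, all but the one on ranks.

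Fe_g32675, for which no annotation was found in the sources used, came next, with levels between 0.156 and 17.2 TPM and a median of 4.30 TPM. Its r was 0.627 with the ratio, 0.590 with Fe_g22999 and -0.563 with Fe_g19663. Its slopes in the joint fit were 0.31 ± 0.06 and -0.24 ± 0.06 (SE, limma adjusted p = 7.6e-05 and 0.00755). Fe_g44077.1, an AT-hook gene of a class of DNA-binding proteins, had r = 0.595 with the ratio, 0.537 with Fe_g22999 and -0.553 with Fe_g19663. It was expressed at a low level, with a median of 0.531 and a highest value of 2.70 TPM. Both genes were called under 6 of 9 alternatives. The adjustment for 5 components, the ranks and the fit without 18 trees each ended the call of both.

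The other 9 genes on the SVP side had r between 0.457 and 0.555 with the ratio. Among those the study annotated, and chosen after their values were seen, Fe_g40685, of the MATE family of membrane transporters, was at a median of 58.3 TPM with a range from 3.98 to 256 TPM and had r = 0.5005. Fe_g23915, a cyclin-dependent kinase inhibitor, a class of proteins that restrain the cell cycle, had r = 0.502 at a median of 1.62 TPM. Fe_g40685 was called under 4 of 9 alternatives and Fe_g23915 under 3.

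On the SOC1 side, the JOINTLESS-like MADS-box gene Fe_g18379 fell with the ratio. In tomato, JOINTLESS is needed for the abscission zone of the flower stalk, and it is a relative of SVP. Fe_g18379 was listed at 0 in 51 trees and reached 23.7 TPM, and its density had a minimum at 2.20 TPM that separated the 76 lowest trees from the others, so r is given within each side. In the trees above the minimum, r was -0.446 and rho -0.434 with the ratio (permutation adjusted p = 6e-05 for both, over 12 tests). In these trees r was -0.382 with Fe_g22999 and 0.430 with Fe_g19663. In the 76 trees below the minimum, r was -0.341 and rho -0.406 with the ratio (permutation adjusted p = 0.00241 and 0.00048), with r = -0.391 for Fe_g22999 and 0.297 for Fe_g19663. Without 2 trees r with the ratio was -0.451 above the minimum and -0.284 below it.

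The call of Fe_g18379 came from the joint fit over all trees, where its slope was -0.64 ± 0.12 per SD of Fe_g22999 and 0.78 ± 0.12 per SD of Fe_g19663, with SEs after the signs and limma adjusted p of 3.8e-05 and 5.82e-06. It was the only gene of the 14 called under each of the 9 alternatives. None of these was fitted within 1 side of the minimum. The ratio was above 0 in 73 of the 76 trees below the minimum. Above the minimum it was below 0 in 71 trees and above 0 in 35. Below the minimum, with 51 trees at 0, r was -0.391 with Fe_g22999 and -0.341 with the ratio. By rho the order was reversed, at -0.345 and -0.406. Whether both slopes hold within either side was not tested. The other gene on the SOC1 side was Fe_g18377, for which no annotation was found and whose identifier falls between those of JOINTLESS-like genes. It was listed at 0 in 83 trees and reached only 2.32 TPM. Its r was -0.549 with the ratio, -0.489 with Fe_g22999 and 0.515 with Fe_g19663, and it was called under 6 of 9 alternatives.

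**Figure D5:**
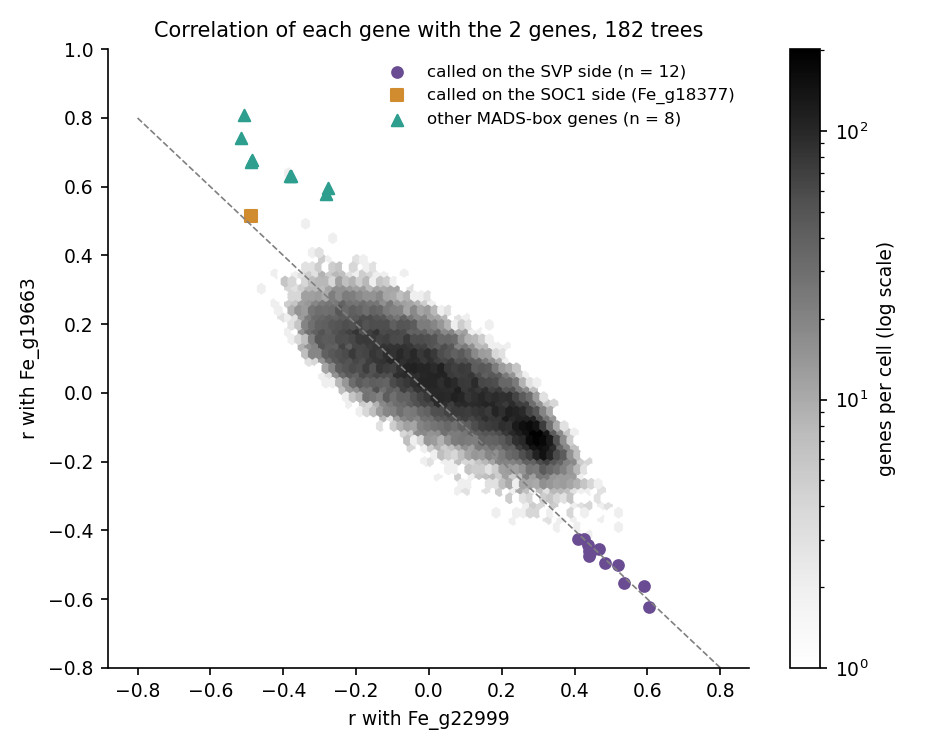
Pearson's r of each gene with Fe_g22999 (horizontal axis) and with Fe_g19663 (vertical axis) on log2(TPM + 1) over 182 trees. Grey cells show the number of genes on a log scale, purple points the 12 genes called on the SVP side, the square Fe_g18377 and triangles 8 other MADS-box genes, while Fe_g18379 is left out because its values fall into separate clusters. The called genes lie near the dashed line, where both r have the same size and opposite sign, and the triangles lie above it, with a larger r for Fe_g19663.

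The other MADS-box genes also fell with the ratio, and those not called on the SOC1 side had a larger absolute r with Fe_g19663 than with the ratio. All 3 SOC1-like genes and all 6 JOINTLESS-like genes fell with it, where 14.2% of all genes tested fell. The study selected these 9 genes on the same trees and for the same trait as the pair, so nothing is read from that difference. Fe_g40353, a SOC1-like gene, had r = -0.733 with the ratio, yet 0.808 with Fe_g19663 and -0.507 with Fe_g22999. Once Fe_g19663 was in the fit, its slope with Fe_g22999 was 0.07 ± 0.05 (SE, limma adjusted p = 0.277). Its levels had a lowest value of 2.04, a median of 40.6 and a highest value of 75.5 TPM. The SOC1-like gene Fe_g40351.1 likewise had r = -0.699 with the ratio and a joint slope of 0.92 ± 0.09 with Fe_g19663, against -0.02 ± 0.09 with Fe_g22999 (SE, limma adjusted p = 5.61e-17 and 0.845).

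Fe_g40350, the SOC1-like gene with the smallest r, at -0.493, rose with both members of the pair in the joint fit, by 0.16 ± 0.05 per SD of Fe_g22999 and 0.49 ± 0.05 (SE) per SD of Fe_g19663, at limma adjusted p of 0.00885 and 9.06e-14. Its rho with the ratio was -0.351, the largest gap between r and rho of all genes named. Fe_g36254, the most abundant of the JOINTLESS-like genes with a median of 101.1 TPM, had r = -0.485 and also rose with both, by 0.07 ± 0.03 and 0.25 ± 0.03 (SE, limma adjusted p = 0.0303 and 8.23e-12). The other JOINTLESS-like genes had r of -0.566 (Fe_g18373.1), -0.565 (Fe_g18374), -0.643 (Fe_g18375) and -0.644 (Fe_g18376) with the ratio. Each of them had an r with Fe_g19663 of 0.632 to 0.677, and only that term passed in the joint fit. Similar paralogs can share reads, so values within this family are uncertain.

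The annotated genes outside the MADS-box family were taken from those the study had selected on these trees, which is no independent evidence of a direction. Over all 55 genes listed, MADS-box genes included, 11 rose and 25 fell with the ratio (65.5% called, against 33.3% of all genes tested, of which 19.1% rose and 14.2% fell), and their median r was -0.165, where the median over all genes tested was 0.01. All 3 OVATE genes, a family of transcriptional repressors, rose with the ratio. Fe_g34396 and Fe_g34397 had r of 0.455 and 0.444, and in the joint fit only the Fe_g22999 term passed for each of the 3 (limma adjusted p from 6.3e-05 for Fe_g20799 to 0.00597 for Fe_g34396). The Fe_g22999 term passed for 45.1% of all genes tested, and for 24 genes in all with 5 components as covariates. Fe_g34396 was listed at 0 in 21 trees and Fe_g34397 in 10.

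Of the 4 genes for NF-YA (subunits of the CCAAT-binding factor) and TOPLESS-related corepressors, 3 fell with the ratio. The counts of this list and of those below are small, and 19.1% of all genes tested rose and 14.2% fell. The NF-YA genes Fe_g14387 and Fe_g23914 had r of -0.534 and -0.512. In the joint fit the Fe_g22999 term passed for Fe_g14387 (slope -0.10 ± 0.03, SE, limma adjusted p = 0.000611). Its Fe_g19663 term did not (slope 0.07 ± 0.03, limma adjusted p = 0.0626). For Fe_g23914 the Fe_g19663 term passed (slope 0.12 ± 0.03, limma adjusted p = 0.00309) and the Fe_g22999 term did not (slope -0.06 ± 0.03, limma adjusted p = 0.0745). The signs were thus the same in both genes. Whether the slopes of these 2 genes differ from each other was not tested. Among 5 AP2 and ethylene-related genes, 1 rose, Fe_g27900, and 2 fell. Among 6 other regulators of transcription and chromatin, 2 rose and 2 fell, and both that fell, the GAGA-binding gene Fe_g23724 and the Myb gene Fe_g37082, lost the call with 5 components (limma adjusted p = 0.074 and 0.0652).

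The counts in the next lists are small and stand beside 19.1% rising and 14.2% falling over all genes tested. Of 4 genes for plastid pigments and isoprenoids, 3 rose with the ratio, and 1 of these calls, of Fe_g32180, was lost with median-of-ratios scaling and without the 18 trees (limma adjusted p = 0.0511 and 0.0603). Fe_g39558, a CDP-ME kinase of the plastid pathway to isoprenoids, had r = 0.401, and Fe_g5474, the divinyl reductase of chlorophyll synthesis, r = 0.285. Of 6 cell wall genes, 1 rose and 4 fell, and 2 of those that fell, the beta-L-arabinofuranosidase genes Fe_g6398 and Fe_g6399, were not called with 5 components (limma adjusted p = 0.134 and 0.0844) or without the 18 trees (0.126 and 0.359). The pectate lyase gene Fe_g17679.1 rose, with r = 0.304, and the xyloglucan endotransglycosylase gene Fe_g4298.2 fell, with r = -0.313. Of 4 genes in the list of auxin and membrane transport, 3 fell, of which the auxin response factor gene Fe_g31540 was not called with 5 components or without the 18 trees (limma adjusted p = 0.113 and 0.328). The membrane transport genes Fe_g28064 and Fe_g28062 among them had r of -0.336 and -0.335.

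The remaining lists had 1 call each, where 33.3% of all genes tested were called. Among 5 clock and light genes only Fe_g10721, an EMBRYONIC FLOWER gene of a kind that represses flowering in Arabidopsis, was called, with r = -0.338. The B-box gene Fe_g21102 had r = -0.136 and a slope of -0.07 (limma adjusted p = 0.141), but it was called with 5 components, at a slope of -0.13 (limma adjusted p = 4.87e-05), and without the 18 trees (limma adjusted p = 0.0059). Among 4 heat shock and chaperone genes only the chaperonin gene Fe_g36128 was called, with r = 0.181 (limma adjusted p = 0.0447). That call was lost under 5 alternatives, with an adjusted p between 0.0553 without the filter and 0.808 with 5 components. The HSP90 gene Fe_g35175.1 had r = -0.08 (limma adjusted p = 0.431). Among 5 kinases only the cysteine-rich receptor-like kinase gene Fe_g38091 was called, with r = -0.195 (limma adjusted p = 0.0293), and the call was lost with a pseudocount of 0.1 and with 5 components (limma adjusted p = 0.059 and 0.183). The AFC2 gene Fe_g33197.2 had r = -0.119 (limma adjusted p = 0.212).

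The genes called in the same direction with both members depended on the scaling, as given above. The largest r with the sum of the 2 standardized levels among genes called in the same direction was 0.453, for Fe_g7099.2, which had a median of 1.53 TPM and an r of 0.00087 with the ratio. Its slopes were 0.20 ± 0.03 per SD of Fe_g22999 and 0.19 ± 0.03 (SE) per SD of Fe_g19663, at limma adjusted p of 4e-06 and 1.3e-05. Without the 18 trees highest on component 1, 3 genes rose with both members and 0 fell with both.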

How the data were processed

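Leaf RNA of 182 trees was sequenced in an earlier study as 100 bp reads. The authors ran Trimmomatic for trimming and Salmon 0.8 for quantification against the coding sequences of their long-read genome, and deposited TPM values that tximport gave in R 4.3.3. TPM keeps no depth, so no counting interval was given. Salmon divides reads shared by similar paralogs.

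The genes, lists and tests were chosen with earlier results of these data known. Trees were treated as independent, and relatedness was not modelled. P-values measure the spread between these trees only under that assumption. Trees with neighbouring numbers were alike in the pair, so the trees may not be independent, and p-values can then be too small. Relations were tested with 100000 permutations and Benjamini-Hochberg adjustment within each family of tests. Genes that reached 1 TPM in 19 or more trees (31003, or 31001 without the pair) were fitted on log2(TPM + 1) with limma 3.58.1 (eBayes with trend). This scale understates changes of low genes. The fit was tested on simulated data in which each gene outside the pair was shuffled separately over trees. Shuffling removed the correlation between genes, so its effect on the calls was not tested. Separate clusters of trees required a density minimum under 0.5 of the lower peak with 18 trees on each side. A rule named the MADS-box genes, and list members called in opposite directions or else the 2 with the largest absolute r with the ratio. It also named the 2 highest and 2 lowest r among genes called in opposite directions. The last was the 1 with the largest r among genes called in the same direction. Other list members were named outside this rule, such as Fe_g23724 and Fe_g6398. Fe_g40685 and Fe_g23915 were added after their values were seen. Over the 60 genes computed, which include every list member, r with the ratio changed by at most 0.027 without 2 trees. No sequences or genome positions were used here. Python 3.11.15, numpy 2.4.6 and scipy 1.17.1 were used.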

Additional observations from a re-analysis of the deposited data

How the results depend on the processing

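The ratio's median, the counts of trees on each side and the relations to the Ash number, to neighbouring trees, to the listings and to library measures kept their direction and their side of the threshold under each alternative run. The number of genes that rose and fell with the ratio was 1750 and 936 with 5 principal components as covariates, and 1332 and 2210 without the 18 trees highest on component 1. The 14 genes called in opposite directions, 12 on the SVP side and 2 on the SOC1 side, were 6 (5 and 1) with median-of-ratios scaling, 2 (1 and 1) with 5 components and again 2 (1 and 1) without the 18 trees. On normal scores of ranks they were 3 (0 on the SVP side and 3 on the SOC1 side). With the number of genes above 0 TPM as covariate 7 were called on the SVP side, and with the listing as covariate 5 were called on the SOC1 side. Opposite signs were kept by 13 of the 14 genes under all 9 alternatives, Fe_g23915 being the exception with 7. The genes that rose and fell with both members, 2125 and 99, were 11 and 12 with median-of-ratios scaling, 2 and 1 with 5 components, 3 and 0 without the 18 trees, and 7963 and 1290 on ranks. With the Ash number, 3105 genes rose and 3398 fell under median-of-ratios scaling, 3264 rose and 8447 fell with the listing as covariate, and 2731 fell with 5 components. As rising calls were 28.2% of all calls with the Ash number as deposited and 47.7% after scaling, that split depends on the scaling. The causes were not tested. Over the 60 genes computed singly, 627 of 660 alternative values kept their status as called or not called, 20 lost the call and 13 gained it. No slope called under the main or the alternative setting changed sign. Slopes not called could change sign, as for Fe_g45829, at 0.023 in the main fit and -0.058 with 5 components. The tests within each listing of neighbours were added after seeing the data. No paired analysis was possible because all trees form 1 group with 1 library each.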
